A study of Mus musculus with 16 samples.

Results

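Il21, Bcl6, Cxcr5, Icos, Maf, Sh2d1a, Ascl2 and Cd200 are 8 genes known for their use in follicular helper T cells, and their mRNA was followed in donor T cells recovered from mice that had received an allogeneic or a syngeneic haematopoietic stem cell transplant. The genes were taken by name. They are 8 of the 20972 mouse genes that could be named on the array. Each was found through the RefSeq accession of its probes, and all 8 had a probe that passed the filter on dim signals. Icos had 2 probes and the others 1, and for Icos the probe with the higher mean over all arrays is given.

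The 16 arrays are 1-colour Agilent expression arrays of donor T cells from female mice with a C57BL/6 strain background. The allogeneic groups were sorted from the ovary (CD8, 4 arrays; CD4, 2 arrays) and from the spleen (CD8, 3 arrays; CD4, 2 arrays), and the syngeneic controls from the spleen (CD8, 3 arrays; CD4, 2 arrays). All cells had thus been transplanted, and syngeneic ovary was not analysed here. The sources used here do not give the recipient strain, the ages of the mice, the time after transplantation, or whether replicates came from separate animals, so p-values measure the spread between these samples, which may be technical. A level is the log2 processed signal minus the 75th percentile of its array, so that 0 marks that percentile. A difference is between group means on that log2 scale, and is given ± its standard error (SE). Levels of different genes come from different probes and are not set against each other.

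Follicular helper cells are CD4 T cells that enter B-cell follicles and help germinal-centre B cells. BCL6 is the transcription factor that directs the programme, MAF and ASCL2 act beside it, and CXCR5 is the chemokine receptor that follows CXCL13 into the follicle. ICOS and CD200 are surface molecules of these cells, the adaptor SAP (Sh2d1a) carries SLAM-receptor signals in their contact with B cells, and IL-21 is the cytokine they are best known for. IL-21 is also made by other activated T cells, and in mouse models of graft-versus-host disease, in which donor T cells attack recipient tissue, it is known as a cytokine that promotes the disease. Most of these genes are also switched on in activated or chronically stimulated T cells outside follicles, so none of them marks a follicular helper cell on its own.

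The 75th percentile of the processed signal ran from 67.6 to 450 between arrays, and the 4 allogeneic CD4 arrays were the dimmest (67.6 to 141). Between 41.8% and 59.4% of spots were well above background. Every group lay on both of the 2 slides. The sort markers followed the labels in level. Cd8a was well above background on 0 of 6 CD4 arrays and on 10 of 10 CD8 arrays (4.71 to 5.82). Cd8b1 stood at 5.36 to 6.74 in CD8 and -2.82 to 0.17 in CD4 sorts, where 5 of 6 arrays were well above background. Cd4 stood at 4.48 to 5.56 in CD4 and 1.42 to 2.45 in CD8 sorts. It was well above background on 10 of 10 CD8 arrays. All 10 pan-T markers named on the array were above background on every array. B-cell markers differed between groups: their summed linear level (11 genes, in units of the 75th percentile) was 42.8 to 91.6 in syngeneic CD4, 18.0 to 30.6 in syngeneic CD8, 10.4 to 12.0 in allogeneic splenic CD4, 3.71 to 6.31 in allogeneic splenic CD8, and 1.75 to 2.92 in the ovary. In the ovarian CD4 sort 8 of the 11 were not well above background on any array.

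Promoter windows from RefSeq (GRCm38.p6) are shown for 3 members, because Il21 and Cd200 were among those that rose after allogeneic transplantation in both sorts and Bcl6 was the one that fell. Each window is 236 bases, from 250 to 15 bases before a transcript start in the RefSeq promoter table and outside the annotated span of the gene, 5′ to 3′ on the gene's strand. Capitals mark matches on either strand to GGAAA, the core that NFAT proteins bind, or to TTCNNNGAA, the palindrome of STAT proteins.
Il21, chr3:37232651-37232886, minus strand: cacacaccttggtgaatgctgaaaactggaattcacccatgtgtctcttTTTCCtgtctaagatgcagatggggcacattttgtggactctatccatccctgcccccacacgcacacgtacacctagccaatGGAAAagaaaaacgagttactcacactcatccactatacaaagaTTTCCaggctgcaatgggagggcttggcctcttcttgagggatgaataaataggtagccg
Cd200, chr16:45409068-45409303, minus strand: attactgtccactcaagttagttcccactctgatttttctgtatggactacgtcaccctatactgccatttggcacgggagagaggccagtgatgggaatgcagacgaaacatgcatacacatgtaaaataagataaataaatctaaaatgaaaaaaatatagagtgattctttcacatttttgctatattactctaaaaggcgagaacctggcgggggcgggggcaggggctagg
Bcl6, chr16:23988867-23989102, minus strand: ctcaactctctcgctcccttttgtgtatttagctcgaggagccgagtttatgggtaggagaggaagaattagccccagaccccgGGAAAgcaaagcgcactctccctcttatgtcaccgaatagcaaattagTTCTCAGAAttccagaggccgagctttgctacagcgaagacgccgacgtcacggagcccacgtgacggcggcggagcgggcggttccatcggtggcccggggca
Il21 had 3 matches to GGAAA and none to TTCNNNGAA. Cd200 had none to either, and Bcl6 had 1 to each. GGAAA occurred in 53.4% of the 32851 promoter windows of this length and TTCNNNGAA in 6.64%. The AP-1 motif TGANTCA, which occurred in 6.50% of windows, was in none of these 3. A match is a description of the letters and not a bound site.

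Il21, the cytokine gene, was highest in allogeneic CD4 cells, at 3.09 and 3.42 in the spleen and 2.73 and 3.31 in the ovary. Allogeneic CD8 cells followed at 1.36, 0.85 and 1.21 in the spleen and 0.94, 0.85, -0.22 and 0.78 in the ovary. Syngeneic CD4 cells stood at -0.57 and 0.54, overlapping the ovarian CD8 arrays. In syngeneic CD8 cells the probe read -4.99, -6.34 and -5.89 and was not well above background on any of the 3 arrays. The allogeneic CD4 arrays therefore lay above every CD8 array, and the syngeneic CD8 arrays below all others.

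Bcl6, the gene of the directing factor, ran in another order. It was highest in syngeneic CD4 cells (3.42 and 3.52), and then in allogeneic splenic CD4 (3.03 and 2.75) and syngeneic CD8 cells (2.64, 2.73 and 3.28), whose arrays overlapped. The ovarian CD4 arrays read 2.13 and 1.83. Allogeneic CD8 arrays were lowest, at 1.78, 1.74 and 1.48 in the spleen and 1.58, 1.77, 0.88 and 1.71 in the ovary, with overlap between the tissues. Cxcr5, the follicle-homing receptor, was likewise highest in syngeneic (2.45 and 2.38) and allogeneic splenic CD4 cells (2.32 and 1.95). It read 1.50 and 0.53 in ovarian CD4, 1.31, 1.12 and 0.80 in allogeneic splenic CD8, and 0.71, 0.62 and 1.37 in syngeneic CD8 cells, 3 groups whose arrays overlapped. The ovarian CD8 arrays were lowest at 0.37, 0.41, 0.02 and 0.32.

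Maf, which directs Il21 and Il4 transcription in helper cells, was high in every CD4 group. It read 4.03 and 4.48 in allogeneic splenic CD4, 3.92 and 3.89 in ovarian CD4, and 2.23 and 3.05 in syngeneic CD4 cells. CD8 cells read 0.86, 0.75 and 1.54 in the allogeneic spleen, 1.13, 1.01, 1.51 and 0.97 in the ovary, and -1.33, -1.18 and -1.99 after syngeneic transplantation. Every CD4 array lay above every CD8 array, and the 2 allogeneic CD8 groups overlapped. Ascl2, a basic helix-loop-helix factor that can induce Cxcr5, was highest in syngeneic CD4 cells (-0.15 and 0.45). The 2 allogeneic splenic CD4 arrays were far apart at -2.14 and -0.08, and ovarian CD4 read -2.03 and -1.68. Ascl2 stood at -3.93, -3.64 and -3.08 in allogeneic splenic CD8 and at -3.24, -3.12, -2.98 and -3.12 in ovarian CD8 cells. On the 3 syngeneic CD8 arrays (-3.91, -6.17 and -4.60) it was not well above background.

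Icos, Sh2d1a and Cd200 were well above background on all 16 arrays. Icos, a costimulatory receptor, ran from 5.95 to 6.48 over the 4 allogeneic CD4 arrays, from 4.92 to 5.36 over the 7 allogeneic CD8 arrays, averaged 5.02 over the 2 syngeneic CD4 arrays, which overlapped the allogeneic CD8 arrays, and was lowest in syngeneic CD8 cells (3.88, 3.83 and 3.33). Sh2d1a was the one member whose highest arrays were CD8 cells: 4.71 to 5.30 over the 7 allogeneic CD8 arrays against 4.02 to 4.67 over the 4 allogeneic CD4 arrays. The syngeneic arrays lay lower, at 3.40 and 3.55 in CD4 and 3.08, 3.14 and 3.20 in CD8 cells. Cd200, an inhibitory surface glycoprotein, read 3.34 and 3.12 in allogeneic splenic CD4 and 2.87 and 2.52 in ovarian CD4 cells. Allogeneic CD8 arrays ran from 1.87 to 2.61, the syngeneic CD4 arrays read 1.18 and 2.08, and the syngeneic CD8 arrays were lowest at -0.62, -0.50 and 0.41.

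**Figure D1:**
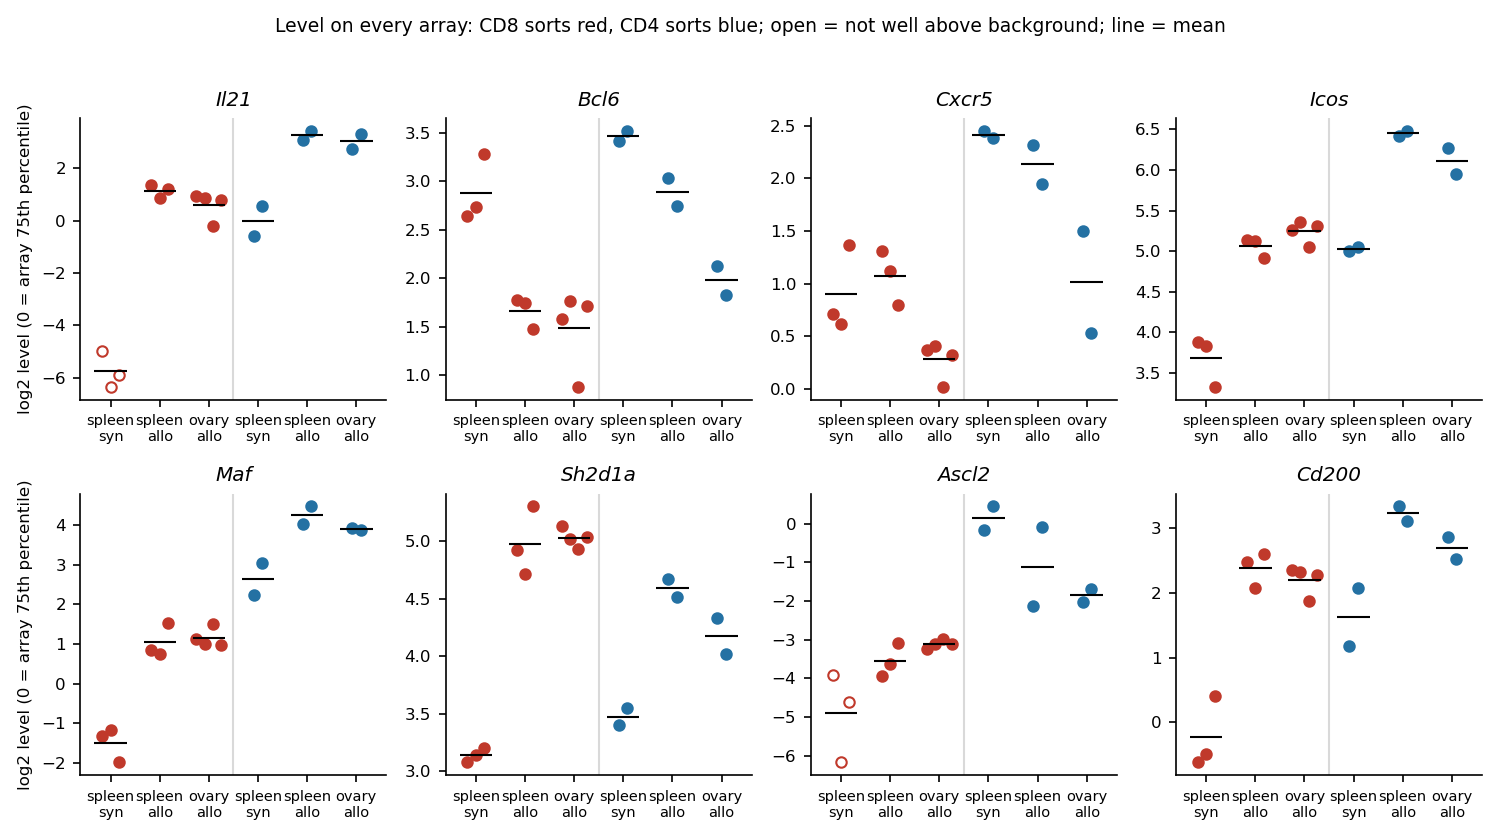
Level of each of the 8 genes on every array (y axis, log2 relative to the array's 75th percentile) in the 6 groups, with the CD8 sorts in red, the CD4 sorts in blue, group means as lines and open points where the probe was not well above background. Il21, Maf and Cd200 lay lowest in syngeneic CD8 cells (Il21 -4.99, -6.34 and -5.89), while Bcl6 lay lowest in allogeneic CD8 cells.

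After allogeneic transplantation, splenic CD8 cells carried more of 5 of the 8 mRNAs than after syngeneic transplantation, and less Bcl6. Il21 was at least 37.5-fold higher. The bound sets the mean of the 3 allogeneic arrays (1.14) against the lowest signal that counted as well above background on the syngeneic arrays, because the syngeneic mean (-5.74) was measured within background. With every value below a common floor of -2.50 set to that floor, the difference was 3.64, and with normexp correction and quantile normalization it was 2.89. Both passed. Cd200 was 6.17-fold higher (difference 2.62 ± 0.30), Maf 5.86-fold (2.55 ± 0.29), Sh2d1a 3.58-fold (1.84 ± 0.16) and Icos 2.61-fold (1.39 ± 0.16). Their limma adjusted p ran from 2.28e-06 for Sh2d1a to 3.42e-05 for Icos, and that of Il21 was 1.12e-07 (3 arrays against 3). The allogeneic arrays lay above all syngeneic arrays for each of these 5.

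Bcl6 fell 2.32-fold in the same cells (difference -1.21 ± 0.24, adjusted p = 0.00169), and all 3 allogeneic arrays lay below the syngeneic ones. Cxcr5 (0.18 ± 0.26, adjusted p = 0.617) and Ascl2 (1.34 ± 0.55, adjusted p = 0.0738) did not pass the test. The Ascl2 value uses syngeneic signals within background, and its arrays overlapped between the 2 groups. Set against the lowest signals that counted as well above background, its allogeneic mean was 1.32-fold higher, which is no call of a rise. Against this count, 18.8% of all 22820 features tested were called higher and 19.6% lower, 38.4% in either direction. For 6 of 8 members the 2 groups of arrays did not overlap, as for 53.5% of all features. The median difference over the members was 1.61, beside -0.16 over all features. In bulk RNA, fewer cells that carry a transcript and less of it per cell cannot be told apart. Ascl2 passed without replicate 1 of syngeneic CD8 cells (1.83), a value that rests on the same signals within background. Its arrays all lay below the common floor in both groups, so that the difference there was 0. Array weights called Cxcr5 (0.36), along with 68.2% of all features. On slide 2 alone, with 2 residual degrees of freedom, Bcl6 (-1.52) and Icos (1.34) did not pass, and all 6 called members kept their direction on both slides.

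In splenic CD4 cells Il21, Maf, Cd200, Icos and Sh2d1a rose after allogeneic transplantation. Il21 was 9.64-fold higher (difference 3.27 ± 0.49, adjusted p = 0.00108, 2 arrays against 2). Maf was 3.07-fold (1.62 ± 0.35), Cd200 3.03-fold (1.60 ± 0.36), Icos 2.69-fold (1.43 ± 0.20) and Sh2d1a 2.16-fold higher (1.11 ± 0.19), with adjusted p between 0.000692 and 0.0116. No member fell. Bcl6 (-0.57 ± 0.29, adjusted p = 0.21), Cxcr5 (-0.28 ± 0.32, adjusted p = 0.607) and Ascl2 (-1.26 ± 0.68, adjusted p = 0.237) did not pass. Of all features 10.4% were called higher, 5.7% lower and 16.1% in either direction. The arrays of 7 of 8 members did not overlap, as for 51.2% of features. The members' median difference was 1.27, beside 0.04 over all features. Markers of macrophages, which also express Maf, are given below for these groups. Their part in the Maf rise was not tested.

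These 5 calls in CD4 cells rest on a spread estimated over all 6 groups. With only the 4 arrays compared, or on slide 2 alone, 0 of 8 members passed, with Il21 at 3.27 and 2.88. Without replicate 1 of syngeneic CD4 cells Maf (1.21) and Cd200 (1.15) did not pass, nor did Cd200 without replicate 1 of allogeneic splenic CD4 (1.49). Without replicate 2 of allogeneic splenic CD4, 1 of the 2 dimmest arrays, Ascl2 passed as lower (-2.29).

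**Figure D2:**
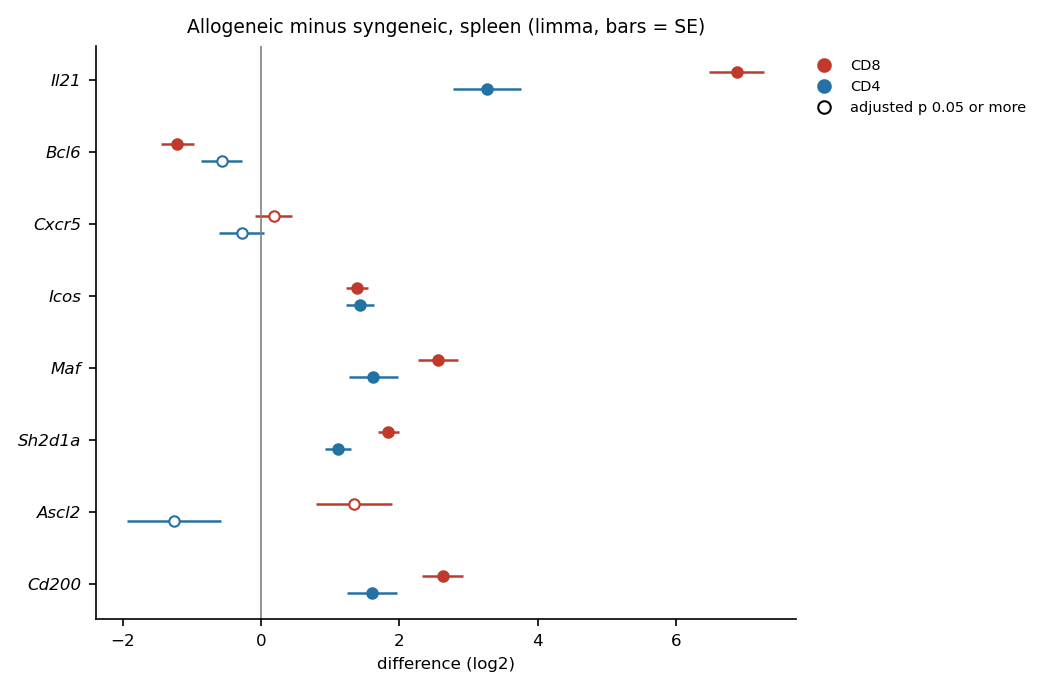
Allogeneic minus syngeneic difference in the spleen (x axis, log2) for each member, with CD8 cells in red, CD4 cells in blue, bars of 1 SE and open points where the adjusted p was 0.05 or more. Il21, Icos, Maf, Sh2d1a and Cd200 lie to the right of 0 in both sorts; the Il21 point of CD8 cells (6.88) uses syngeneic signals within background and is no measured fold.

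The sorts were compared directly by testing the difference between the CD8 and the CD4 response. Il21 was the 1 member of 8 that passed: the fitted CD8 difference exceeded that of CD4 by 3.61 ± 0.64 (adjusted p = 0.00503), where 5.27% of all features were called with a larger CD8 difference, 6.67% with a smaller one and 11.9% in all. This value turns on how the syngeneic CD8 signal within background is handled. With the common floor it was 0.37, and with normexp correction and quantile normalization it was -0.16, and neither passed. Sh2d1a passed with that floor (0.73). Icos changed by nearly the same amount in both sorts: the CD8 response minus the CD4 response was -0.04, with a 95% interval from -0.60 to 0.52. For Sh2d1a (0.73 ± 0.25, adjusted p = 0.0747), Ascl2 (2.60 ± 0.88, adjusted p = 0.0736), Cd200 (1.02 ± 0.47, adjusted p = 0.167) and Maf (0.93 ± 0.46, adjusted p = 0.195) the difference between sorts did not pass. The Ascl2 value rests on syngeneic CD8 signals within background. It was 3.09 without replicate 1 of syngeneic CD8 and 3.63 without replicate 2 of allogeneic splenic CD4 cells, where it passed, and 1.26 with the common floor, where it did not. With quantile normalization (2.90) and with normexp correction and quantile normalization (1.01) it passed.

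Bcl6 and Cxcr5 are also genes of B cells, and B-cell markers fell after allogeneic transplantation, as Bcl6 did in CD8 cells. From syngeneic to allogeneic spleen 9 of 10 tested B-cell markers fell in CD8 cells and 7 of 10 in CD4 cells. Of all features 19.6% were called lower in CD8 and 5.7% in CD4 cells. Cd79b, which belongs to the B-cell antigen receptor, changed by -2.18 ± 0.29 in CD8 and -2.31 ± 0.36 in CD4 cells. For Cxcr5, the syngeneic CD8 arrays (summed B-cell levels 18.0 to 30.6) and the allogeneic splenic CD8 arrays (3.71 to 6.31) overlapped. The part of B cells in the Bcl6 and Cxcr5 values was not tested.

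**Figure D3:**
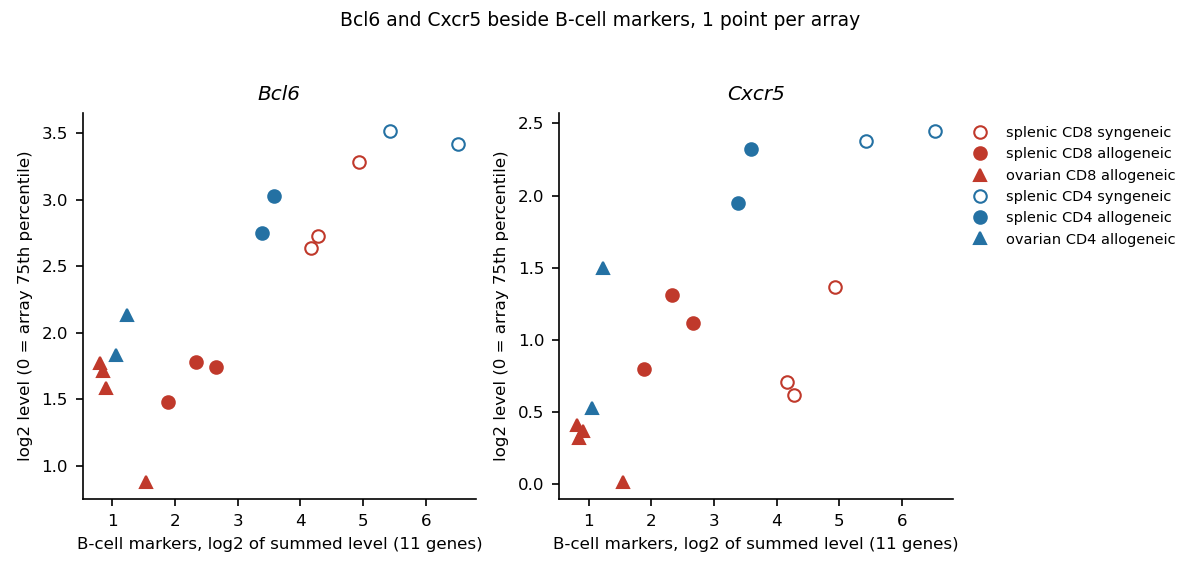
Levels of Bcl6 and Cxcr5 (y axes, log2 relative to the array's 75th percentile) against the summed level of 11 B-cell markers (x axis, log2), 1 point per array, with CD8 sorts in red, CD4 sorts in blue, open symbols syngeneic and triangles ovary. The syngeneic CD4 arrays, with the highest marker sums (42.8 and 91.6), have the highest Bcl6 levels (3.52 and 3.42). The ovarian arrays have the lowest marker sums (1.75 to 2.92). The ovarian CD4 arrays have sums of 2.09 and 2.34 and Bcl6 levels of 1.83 and 2.13. The allogeneic splenic CD8 arrays, which differ from them in sort and tissue, have sums of 3.71 to 6.31 and Bcl6 levels of 1.48 to 1.78.

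CD8 cells carried less Il21, Maf and Icos than CD4 cells in the syngeneic spleen, the allogeneic spleen and the ovary, and the ovary had more Sh2d1a in CD8 cells. In the syngeneic spleen 6 of 8 members were lower in CD8 cells and none higher, where 2.88% of features were called lower, 1.27% higher and 4.15% in either direction. The CD8 arrays lay below both CD4 arrays for all 8 members, and the arrays of 34.3% of features did not overlap. Il21 was at least 16.9-fold and Ascl2 at least 17.2-fold lower, both against signals within background in CD8 cells. With the common floor the differences were -2.49 and -2.65. Maf was 17.6-fold (-4.14 ± 0.32, adjusted p = 2.4e-05), Cd200 3.64-fold (-1.87 ± 0.33), Cxcr5 2.86-fold (-1.52 ± 0.29) and Icos 2.54-fold lower (-1.34 ± 0.18). Bcl6 (-0.59 ± 0.27, adjusted p = 0.342) and Sh2d1a (-0.34 ± 0.17, adjusted p = 0.425) did not pass. Cxcr5 lost its call without either syngeneic CD4 array (-1.48 and -1.55), and Cd200 without replicate 2 (-1.42).

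In the allogeneic spleen 6 members were again lower in CD8 cells, and none higher, where 14.3% of features were called lower, 15.2% higher and 29.4% in either direction. No member's arrays overlapped between the sorts, as for 49.3% of features. Maf was 9.23-fold (-3.21 ± 0.32, adjusted p = 5.71e-05), Ascl2 5.44-fold (-2.44 ± 0.62), Il21 4.34-fold (-2.12 ± 0.45), Icos 2.61-fold (-1.38 ± 0.18), Bcl6 2.34-fold (-1.23 ± 0.27) and Cxcr5 2.08-fold lower (-1.05 ± 0.29). Cd200 (-0.84 ± 0.33, adjusted p = 0.0732) and Sh2d1a (0.39 ± 0.17, adjusted p = 0.109) did not pass. Without replicate 2 of allogeneic splenic CD4 cells Ascl2 was -1.41 and without replicate 1 Cxcr5 was -0.87, and neither then passed. With only these 2 groups in the fit Bcl6, Cxcr5 and Ascl2 did not pass, while the differences stayed as given.

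In the ovary, 3 members were lower in CD8 cells and Sh2d1a was higher, where 9.03% of features were called lower, 8.48% higher and 17.5% in either direction. No member's arrays overlapped here either, as for 48% of features. Maf was 6.74-fold (-2.75 ± 0.31, adjusted p = 0.000149), Il21 5.41-fold (-2.43 ± 0.43, adjusted p = 0.00302) and Icos 1.82-fold lower (-0.86 ± 0.17, adjusted p = 0.0062), from 4 CD8 and 2 CD4 arrays. Sh2d1a was 1.81-fold higher (0.86 ± 0.17, adjusted p = 0.00512). Cxcr5 (-0.74 ± 0.28, adjusted p = 0.0902), Ascl2 (-1.26 ± 0.59, adjusted p = 0.163), Bcl6 (-0.50 ± 0.25, adjusted p = 0.201) and Cd200 (-0.49 ± 0.31, adjusted p = 0.308) did not pass. Icos did not pass without replicate 1 of ovarian CD4 (-0.70) nor Sh2d1a without replicate 2 (0.70), and without replicate 2 Cxcr5 passed (-1.22). On slide 2 alone 0 of 8 members passed in any of the 3 comparisons of sorts, and every called member kept its direction on both slides.

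Macrophages also express Maf, and their markers moved with the sort as well. From syngeneic to allogeneic spleen, 3 of 11 tested rose and none fell in CD4 cells (median difference 1.48). In CD8 cells none rose and 2 fell (median difference 0.55). Of all features, 16.1% were called in CD4 and 38.4% in CD8 cells between the transplants. Between the sorts, Maf was lower in CD8 cells. Of all features 14.3% were called lower in CD8 cells of the allogeneic spleen, 9.03% in the ovary and 2.88% in the syngeneic spleen. All 11 tested macrophage markers were lower in CD8 than in CD4 cells of the allogeneic spleen, 10 of 11 in the ovary and 6 of 11 in the syngeneic spleen. Their summed level was 142 to 202 in allogeneic splenic CD4, 106 to 178 in ovarian CD4 and 72.5 to 101 in syngeneic CD4 cells, against 38.8 to 58.0, 45.9 to 71.9 and 67.0 to 82.3 in the matching CD8 sorts. Of the 6 regulatory T-cell markers 3 were lower in CD8 cells of the allogeneic spleen and 5 each in the ovary and the syngeneic spleen. After allogeneic transplantation all 6 rose in CD8 and 4 in CD4 cells, beside 18.8% and 10.4% of all features called higher. That list shares Il2ra, Ctla4, Tnfrsf18 and Il10 with the lists below. The part of these cells in the member differences was not tested.

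**Figure D4:**
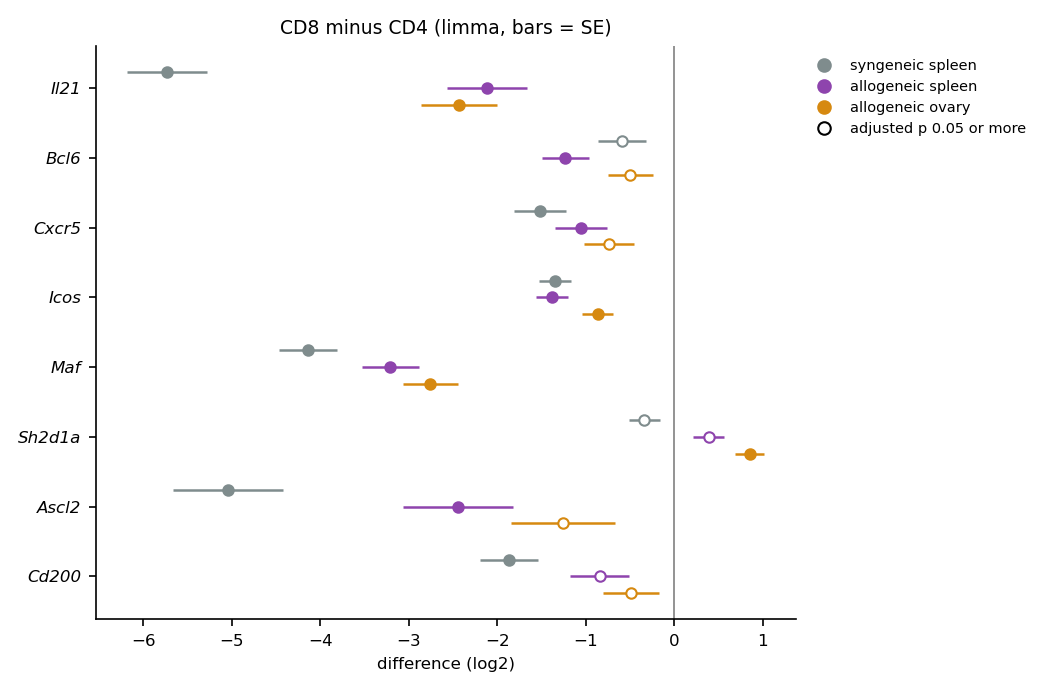
CD8 minus CD4 difference (x axis, log2) for each member in the syngeneic spleen (grey), allogeneic spleen (purple) and allogeneic ovary (orange), with bars of 1 SE and open points where the adjusted p was 0.05 or more. Maf lies far to the left in all 3 settings (-4.14, -3.21 and -2.75), and Sh2d1a lies to the right of 0 in both allogeneic settings (0.39 and 0.86).

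Between ovary and spleen of allogeneic mice, none of the 8 members passed limma's test in either sort. In CD8 cells 0.513% of features were called. At an unadjusted p under 0.05 stood 1 of 8 members and 8.3% of features. The arrays of 1 of 8 members did not overlap, beside 12.7% of features. Il21 differed by -0.55 ± 0.38 (adjusted p = 0.761), with a 95% interval from -1.37 to 0.27. Cxcr5 was lower on all 4 ovarian than on all 3 splenic arrays (-0.80 ± 0.25, adjusted p = 0.281, unadjusted p = 0.00693). The differences of Icos (0.18), Maf (0.11), Sh2d1a (0.05), Bcl6 (-0.18), Cd200 (-0.18) and Ascl2 (0.43) did not pass either. With arrays weighted by quality, 46.6% of all features were called, and 4 of 8 members were among them: Cxcr5 as lower (-0.76), and Sh2d1a (0.33), Maf (0.29) and Icos (0.18) as higher.

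In CD4 cells 0.903% of features were called. At an unadjusted p under 0.05 stood 15.7% of features and 2 of 8 members, Cxcr5 (-1.12 ± 0.32, adjusted p = 0.139) and Bcl6 (-0.91 ± 0.29, adjusted p = 0.172). For both, the 2 ovarian arrays lay below the 2 splenic ones, as they did for 6 of 8 members, where 33.7% of features did not overlap in one direction or the other. Without replicate 1 of ovarian CD4 cells the Cxcr5 difference was -1.60. Array weights called 0 of 8 members, and 0% of all features. Il21 differed by -0.23 ± 0.49 (adjusted p = 0.893), with a 95% interval from -1.31 to 0.84 that 2 arrays a group could not narrow. The test of whether the tissue difference differs between CD8 and CD4 called 0 of 8 members at an adjusted and 0 at an unadjusted p under 0.05, and 0% of all features. Of all features 0.513% were called lower in the ovary in CD4 and 0.259% in CD8 cells. B-cell markers were lower in the ovary too: 4 of 10 tested fell in CD4 and 2 of 10 in CD8 cells, Cd79b by 1.96 ± 0.36 in CD4 cells. Their part in the Cxcr5 and Bcl6 values was not tested.

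**Figure D5:**
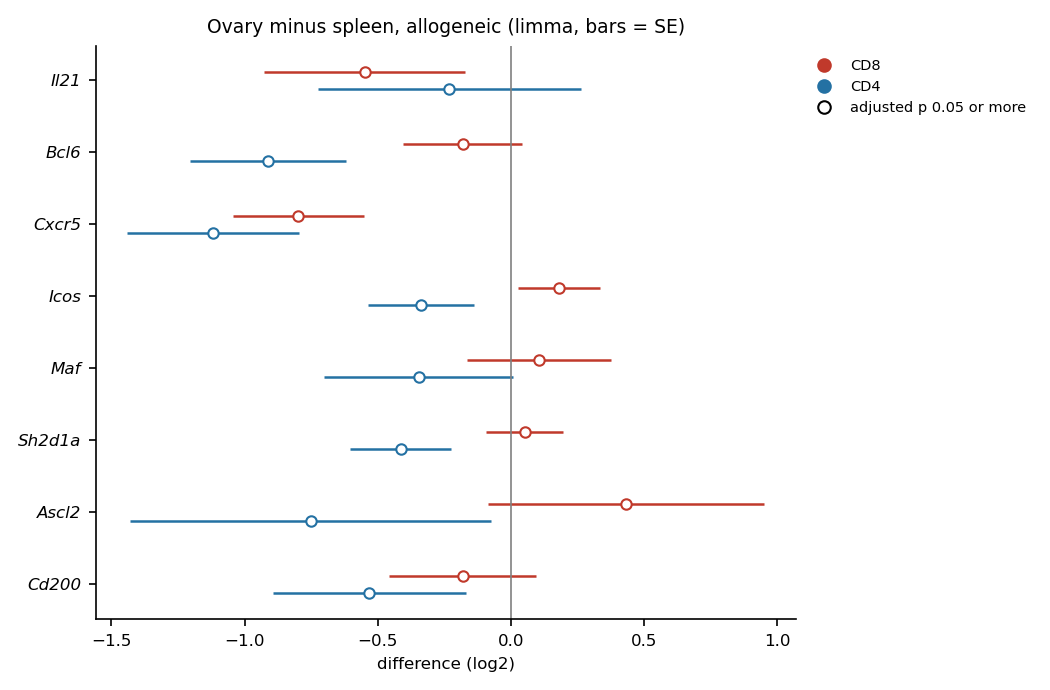
Ovary minus spleen difference in allogeneic mice (x axis, log2) for each member, with CD8 cells in red, CD4 cells in blue, bars of 1 SE and open points where the adjusted p was 0.05 or more. All points are open, and those farthest from 0 are Cxcr5 (-0.80 and -1.12) and, in CD4 cells, Bcl6 (-0.91).

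Genes around the programme were read from 7 lists. Among 20 factors that promote follicular helper cells, 10 rose and 4 fell in CD8 cells after allogeneic transplantation. In CD4 cells 6 rose and 1 fell (median differences 0.63 in CD8 and 0.31 in CD4). Of all features 38.4% were called in CD8 and 16.1% in CD4 cells. Batf, an AP-1 factor that works with IRF4, rose by 2.79 ± 0.15 in CD8 and 2.25 ± 0.19 in CD4 cells. Tox, a factor of chronically stimulated T cells, rose by 3.27 ± 0.18 and 1.83 ± 0.22. Tcf7, which encodes the early follicular helper factor TCF1, fell by 2.20 ± 0.12 in CD8 cells. Irf4 rose in CD8 cells (2.86 ± 0.25) and was 0.46 ± 0.30 in CD4 cells (adjusted p = 0.337), and the test of the difference between sorts called it (2.39 ± 0.39, adjusted p = 0.00345). Tcf7 was also lower in the ovary than in the spleen, by -0.99 ± 0.12 in CD8 (adjusted p = 0.00184) and -0.92 ± 0.15 in CD4 cells (adjusted p = 0.0211). Pou2af1, a coactivator abundant in B cells, was lower there by -2.36 ± 0.41 and -3.46 ± 0.54, beside the B-cell markers given above. These were the 2 of 20 called in each tissue comparison, beside 0.513% of all features in CD8 and 0.903% in CD4 cells.

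Of 17 factors that restrain the programme, 5 rose and 6 fell in CD8 cells and 3 rose and 3 fell in CD4 cells, beside 38.4% and 16.1% of all features called (median differences -0.15 and 0.01, close to those of all features). Prdm1, whose product BLIMP1 opposes BCL6, rose by 4.40 ± 0.25 in CD8 and 2.32 ± 0.30 in CD4 cells, and its rise was larger in CD8 cells (2.08 ± 0.39, adjusted p = 0.00709). Bcl6 and Prdm1 thus changed in opposite directions in CD8 cells, with all 3 allogeneic arrays on 1 side of the syngeneic arrays for each gene. Foxp1, which holds T cells in quiescence, fell by 1.87 ± 0.15 and 1.77 ± 0.18, Il2rb, a chain of the IL-2 receptor, rose by 2.44 ± 0.21 in CD8 cells, and Bach2 fell by 3.12 ± 0.40 in CD4 cells. None of the 17 was called between ovary and spleen in either sort.

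Il21r, the receptor chain specific to IL-21, did not pass the test between transplants in either sort (0.21 ± 0.21 in CD8, adjusted p = 0.445; -0.57 ± 0.25 in CD4, adjusted p = 0.15). It was higher in CD8 than in CD4 cells of the allogeneic spleen (0.96 ± 0.23, adjusted p = 0.00993) and ovary (0.78 ± 0.22, adjusted p = 0.0301), opposite in direction to Il21. Among the 13 tested genes of IL-21 and IL-6 signalling, 2 rose and 2 fell in CD8 cells and 1 rose and 1 fell in CD4 cells, near or under the 38.4% and 16.1% of all features called. Il6ra, the IL-6 receptor, fell by 5.68 ± 0.73 in CD8 cells, and Il6st, its signalling partner, by 1.11 ± 0.24 in CD8 and 1.08 ± 0.30 in CD4 cells. Stat3, the main transducer of IL-21, rose by 0.71 ± 0.17 in CD8 cells.

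Of 9 tested genes of SLAM-family receptors, their ligands and related adaptors, 5 rose in CD8 and 1 in CD4 cells, with none lower. Of all features 18.8% were called higher in CD8 and 10.4% in CD4 cells. Slamf1 (2.00 ± 0.16), Cd48 (1.56 ± 0.15) and Sh2d2a (1.07 ± 0.16) led in CD8 cells and Slamf6 (1.02 ± 0.26) rose in CD4 cells. The difference between sorts was called for 5 of the 9, Slamf1 (1.48 ± 0.26), Sh2d2a (1.15 ± 0.26) and Cd48 among them, beside 11.9% of all features. Of 16 helper contact molecules, 10 rose in each sort, beside 18.8% of all features in CD8 and 10.4% in CD4 cells. In CD8 cells 1 fell and in CD4 cells none (median differences 1.31 and 1.42). Pdcd1, which encodes the inhibitory receptor PD-1, rose by 6.18 ± 0.29 in CD8 and 2.73 ± 0.35 in CD4 cells, and the excess in CD8 cells was called (3.45 ± 0.45, adjusted p = 0.000931). Tigit, an inhibitory receptor well above background on 1 of 3 syngeneic CD8 arrays, rose by 6.56 ± 0.18 and 4.00 ± 0.22. Tnfrsf4 (OX40) rose by 2.79 ± 0.35 in CD4 cells, and its ligand Tnfsf4 was at least 22.7-fold higher in CD8 cells.

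The contact molecules also separated the sorts. In CD8 cells 9 were lower and 3 higher in the ovary, and 11 lower and 2 higher in the allogeneic spleen. In the syngeneic spleen 9 were lower and none higher. Of all features 17.5%, 29.4% and 4.15% were called in these 3 comparisons. Tnfsf8 (CD30 ligand) was lower by -2.48 ± 0.24 in the ovary and -2.45 ± 0.25 in the allogeneic spleen. Cd40lg, which signals to B cells, was called lower in CD8 cells in all 3 settings, but its probe was dim. It was well above background on 2 of 2 syngeneic CD4 arrays and 1 of 2 ovarian CD4 arrays, and on no other array. It thus passed the filter only through syngeneic CD4 cells, the higher side of that comparison. In the allogeneic spleen the call compares signals within background in both sorts. The lower bound was 1.44-fold in the syngeneic spleen and 2.23-fold in the ovary, and no fold is given for the allogeneic spleen. Pdcd1 was lower in CD8 than CD4 cells of the syngeneic spleen (-1.94 ± 0.32) and higher in the allogeneic spleen (1.51 ± 0.32) and ovary (1.56 ± 0.30).

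Among 13 tested genes of follicle positioning, 3 rose and 4 fell in CD8 cells and 4 rose and 2 fell in CD4 cells after allogeneic transplantation, beside 38.4% and 16.1% of all features called. Ccr7, which keeps T cells in the T zone, fell by 4.41 ± 0.22 in CD8 and 2.14 ± 0.27 in CD4 cells. Rgs16 rose by 4.58 ± 0.46 in CD8 and Cxcr3 by 1.91 ± 0.35 in CD4 cells. Between ovary and spleen 2 of the 13 were called in each sort, beside 0.513% of all features in CD8 and 0.903% in CD4 cells. Both were lower in the ovary in both sorts, Cxcr4 among them (-1.69 ± 0.18 in CD8, -1.80 ± 0.24 in CD4). Cxcl13, the ligand of CXCR5, was chosen after its values were seen. It was at least 4.37-fold higher in allogeneic than syngeneic splenic CD4 cells and at least 5.79-fold lower in CD8 than in CD4 cells of the allogeneic spleen.

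Other helper cytokines followed Il21 in being lower in CD8 cells. Of 8 tested, 7 were lower in the ovary, 5 in the allogeneic and 4 in the syngeneic spleen, and none was higher. Of all features 9.03%, 14.3% and 2.88% were called lower in these 3 comparisons. Lta was lower by -2.16 ± 0.13 in the ovary and -2.31 ± 0.14 in the allogeneic spleen. Il4, the cytokine most tied to B-cell help beside IL-21, was at least 46.8-fold lower in CD8 than CD4 cells of the syngeneic spleen, and it fell in CD4 cells after allogeneic transplantation (-2.40 ± 0.75, adjusted p = 0.048), where it was well above background on 1 of 2 allogeneic arrays. After allogeneic transplantation 2 rose and 2 fell in each sort, beside 38.4% of all features called in CD8 and 16.1% in CD4 cells. Il10 was among the risers, at least 13.7-fold in CD8 cells. In CD4 cells it rose by 3.07 ± 0.62, where 1 of 2 arrays in each group was well above background. Unlike the members, Il13 and Lta were higher in the ovary in both sorts: Il13 at least 4.08-fold in CD8 and at least 22.0-fold in CD4, and Lta by 1.02 ± 0.11 and 0.86 ± 0.15.

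The genes most like each member were ranked by Pearson's r over the 16 arrays, as a description of arrays that share sorts, tissues and scaling. Among the genes most like Il21 were Ttn (0.971) and Pdcd1lg2 (0.970), which encodes the PD-1 ligand PD-L2. Icos was most like Ttn (0.973), Tnfrsf18 (0.971) and Capsl (0.958), and Cd200 like Ift43 (0.983), Cyfip1 (0.975) and Serinc3 (0.975). Sh2d1a was most like Kctd9 (0.985), Cd101 (0.981) and Adora2a (0.978), and Maf like Dst (0.969), Tgfb3 (0.967) and Tmem154 (0.966). Bcl6 was most like Rabgap1l (0.968), Efnb1 (0.951) and Tmc4 (0.944). The nearest genes were less alike for Cxcr5 (Ces2b 0.902, Whrn 0.895 and Fech 0.886) and Ascl2 (Ephb6 0.860 and Gm3696 0.853 among them). The second probe of Icos gave the same calls as the first in all 9 comparisons, with rises of 1.41 ± 0.26 in CD8 and 1.51 ± 0.32 in CD4 cells.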

How the data were processed

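Agilent 1-colour arrays (Cy3, Low Input Quick Amp labelling, per the labels' protocols) of 16 sorted T-cell samples were used. The deposited scanner tables hold intensity values made with version 11.5.1.1 of Agilent Feature Extraction (stated in the headers); the background step behind the authors' processed signal is not stated there. The deposited value table holds log2 values, each probe centred over samples, a reading taken from its correlation with the centred scanner values (r of at least 0.9998), since no label states its scale; its column medians ran from -0.341 to 0.491. The log2 processed signal minus each array's 75th percentile over non-control probes was taken, without any floor. Of 55681 probes 27656 were named by RefSeq accession. A probe was kept (31102 were) if all arrays of any of the 6 groups had it well above background, with 1 probe per gene or unnamed accession (22820 features, 13681 with a symbol). The number of arrays limits the precision.

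limma 3.58.1 in R 4.3.3 fitted 1 mean per group over all 16 arrays (10 residual degrees of freedom), with Benjamini-Hochberg adjustment over all features, called under 0.05. The script was tested on simulated data. The 8 members and the gene lists were chosen with earlier results of these data known. All members are named, up to 3 called genes per list and comparison with the smallest p, Il21r, Prdm1, Pdcd1, Cd40lg, Batf and Irf4, and the 3 genes most like each member; a few genes that this rule names are not reported here. Bounds use, per array, the higher of the lowest well-above-background signal and the probe's own. Motifs were searched on both strands. Alternatives were quantile normalization, normexp (offset 50, on the median signal) with quantile, the value table, the dim-probe filter dropped or extended to all 16 arrays, averaged probes, slide or replicate number as a block, each slide alone, only the groups compared, trended robust variance, array weights and leaving out each array. A common signal floor and leaving out the 2 dimmest arrays were added after the data were seen.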

Additional observations from a re-analysis of the deposited data

Results flagged for a closer look

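Il21 in ovarian CD8 cells held 1 array that stood apart: replicate 3 read -0.22 where the other 3 read 0.94, 0.85 and 0.78. Cd200 in the same group also had replicate 3 low, at 1.87 against 2.36, 2.32 and 2.28. Chance flags about 1 in 20 groups by the criterion used, which compares the gap to the nearest array with the range of the group. The same array was also the lowest of its group for Bcl6 (0.88), Cxcr5 (0.02), Icos (5.05) and Sh2d1a (4.93). It was the highest for Maf (1.51) and Ascl2 (-2.98). Its 75th percentile was 190, against 311 to 343 on the other 3 arrays. Its summed macrophage (71.9) and B-cell (2.92) markers were the highest of the group. The part of these in its values was not tested.

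The response of Il21 to allogeneic transplantation differed between CD8 and CD4 cells by 3.61 in the test of that difference. The syngeneic CD8 arrays that carry this value were not well above background, and its size depends on them as given with the processing alternatives.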

How the results depend on the processing

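Most values kept their direction and their side of the threshold: 175 alternative counts of called members stayed within 1.5 times of the reported count and 18 did not, and 1416 alternative values of single members held, while 56 lost a call, 29 gained one, 24 moved without a call and 1 reversed. Between ovary and spleen, array weights called 4 members in CD8 cells, where they called 46.6% of all features, and leaving out single arrays gave 0 in CD8 and 0 to 1 in CD4 cells. For allogeneic against syngeneic CD4 cells, slide 2 alone and only the groups compared gave 0 and array weights 3, and leaving out single arrays gave 3 to 6. On slide 2 alone each comparison of CD8 with CD4 cells gave 0, and with only the groups compared the allogeneic and the syngeneic spleen gave 3 each. For the response of CD8 minus that of CD4, quantile normalization, slide 1 alone and leaving out the 2 dimmest arrays gave 2, a filter on all 16 arrays 0 (Il21 and Ascl2 are then not tested), slide 2 alone 0, and leaving out single arrays 1 to 2. Its Il21 value reversed with normexp and quantile (-0.16). The cause of these shifts was not tested, apart from the filter and the fewer arrays of a slide or of 2 groups. For allogeneic against syngeneic CD4 cells, array weights called 4.14% of all features.

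Replicate numbers are shared between groups, and whether they pair the samples is not known. The main fit treated the samples as unpaired. Deviations of same-numbered CD8 arrays correlated at 0.065, 0.165 and 0.323 between ovary and spleen. Over all comparisons the values ran from -0.440 (ovarian CD8 and CD4, replicate 2) to 0.454 (syngeneic splenic CD8 and CD4, replicate 1). With the replicate block, Il21 was 6.88 in CD8 and 3.27 in CD4 cells between allogeneic and syngeneic spleen, and no count of members moved by over 1.5 times. The median over all features moved from -0.16 to -0.08 with quantile normalization in splenic CD8 cells. Signal over background limits Il21 and Ascl2 in syngeneic CD8 cells, and Cd40lg.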
